A study of Danio rerio with 4 samples.

Results

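Wide domains of 5-hydroxymethylcytosine (5hmC) were described in the hearts of wild-type zebrafish (Danio rerio), dissected at 48 hours post fertilisation. The domains are genome regions over 5 kb wide that held peaks of both 5hmC capture libraries. Overlapping peaks of the 2 captures were joined where they shared at least 1 bp, and joined regions with a peak from each capture were kept. Of 110315 such merged regions, 1368 (1.24%) were wider than 5000 bp, and these are the wide regions. They held 2389 of 145501 peaks in replicate 1 and 1919 of 145893 peaks in replicate 2. Width therefore chose them, and it is the width of the joined peaks of both captures. Both captures had a peak over 5 kb in 373 of them (27.3%), and neither capture had one in 304 (22.2%).

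The series held 4 samples of 1 condition, 2 captures and 2 input libraries, and peak lists of the 2 captures were used. Fish are labelled with the AB strain background and with the genotype Wild type, while the protocol describes crosses between AB and TU fish. No treatment was applied. Each sample was a pool of at least 40 hearts. Separate clutches are not named in the labels, so spread between the captures may be technical. Peak lists hold no expression values, so the labelled tissue was not checked against marker genes.

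TET enzymes make 5hmC by oxidising 5-methylcytosine, the methylated base that is found mostly at CG dinucleotides. 5hmC can be an intermediate in the removal of methylation or a base that persists, and in vertebrate tissues it is known to gather in the bodies of transcribed genes and at enhancers. In the zebrafish embryo Tet2 and Tet3 supply most 5hmC, and their loss is known to disturb heart development. In the capture used here, a glucose that carries an azide was placed on 5hmC, and biotin added to it let the fragments be pulled down on beads. A peak is thus a stretch enriched for fragments that held 5hmC, and a heart pool mixes muscle, endocardial and other cells.

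Depth behind single peaks is unknown from the lists. The labels state about 30M reads per library. Each deposited peak carries the score of the authors' caller, whose lowest value was 50.0 in both lists. Its scale is not stated by label or header, so scores rank peaks and need not be proportional to 5hmC. With 1 condition and 2 captures, and with members picked by width, no test between groups was possible. The comparisons below are descriptions over regions, which are not replicates. Values of each capture are given for scores, peak numbers and peaks over 5 kb. For flanks and spacing, values of each capture alone are given only with the alternatives at the end.

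Wide regions were mostly only a little above the threshold, with a thin tail of much longer ones. Their median width was 5990 bp, with quartiles of 5383 and 7080 bp and a longest of 34508 bp, against 1426 bp (quartiles 1088 and 1972 bp) for the 108947 other merged regions. They made up 9.04 Mb, or 4.84%, of the 186.8 Mb in merged regions. Only 73 exceeded 10 kb. Just inside the threshold were chr11:23933704-23938704 (5001 bp, scores 221 in replicate 1 and 200.2 in replicate 2), chr2:39818510-39823511 (5002 bp, 235 and 859) and chr8:11833880-11838881 (5002 bp, 155 and 510), and 1 further member on chromosome 24 was also 5002 bp wide. The 3 regions just outside were each 5000 bp wide, at chr7:77066207-77071206 (scores 295 and 169), chr14:25761840-25766839 (875 and 1051) and chr19:13787255-13792254 (56.9 and 77.3). Scores on the 2 sides of the threshold overlapped. All coordinates are on danRer7, counted from 1.

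A wide region was often one peak in one capture and several in the other. Both captures called a single peak in 429 wide regions (31.4%), against 95.5% of the other merged regions and 65.9% of the 7117 merged regions of 3 to 5 kb. Replicate 1 alone divided 459 (33.6%), replicate 2 alone divided 156 (11.4%), and both divided 324 (23.7%). A single peak in at least 1 list was therefore found in 1044 wide regions (76.3%), though that peak need not span the region. Replicate 1 cut them more finely, with a mean of 1.75 peaks per wide region against 1.40 in replicate 2, and more peaks than replicate 2 in 539 regions against 184 the other way. More peaks make a joined region wider by construction, so these counts describe the members and do not set them apart.

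Divisions inside wide regions were short. The median gap between neighbouring peaks of one list was 117 bp in replicate 1 (1021 gaps, quartiles 52 and 278 bp) and 92.0 bp in replicate 2 (551 gaps, quartiles 36.5 and 185 bp), below the 250 bp mean length of the sonicated fragments. Gaps under 500 bp made up 86.1% and 93.3%. A gap in one list stays inside a region only where a peak of the other list bridges it. Short gaps therefore follow in part from how regions were joined. Peaks within one wide region differed in score. Where a list had more than 1 peak, its highest score was a median of 2.41 times the lowest in replicate 1 and 2.43 times in replicate 2. The strongest peak was also the longest in 74.1% and 72.3% of divided regions, with a median width of 3223 and 3562.5 bp. Its midpoint lay in the middle part of the region, between 25 and 75% of its length, in 67.7% and 69.0%. A peak that fills most of a region has its midpoint there by construction, so these shares do not show a central summit.

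The 10 widest regions show these patterns peak by peak. On chromosome 13, chr13:5182289-5216796 was cut into 4 peaks by each capture, but at different places. Its replicate 1 peaks scored 1275, 984, 1039 and 2136 from left to right, and its replicate 2 peaks 2843, 597, 861 and 2061. The right-hand peak was the strongest in replicate 1 and second in replicate 2, where the left edge was highest. Each list alone covered the 34508 bp almost fully, with 34379 bp in replicate 1 and 34010 bp in replicate 2. At chr8:55684980-55704749, 3 replicate 1 peaks scored 733, 550 and 163, and 2 replicate 2 peaks scored 716 and 128, so the score dropped to the right in both. Replicate 1 stopped short there and covered 15111 bp, against 19514 bp in replicate 2. At chr14:7097280-7115606, replicate 1 had peaks of 688 and 364 and replicate 2 had peaks of 785, 1156, 609 and 159.8, with the lowest at the right-hand end in both.

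**Figure D1:**
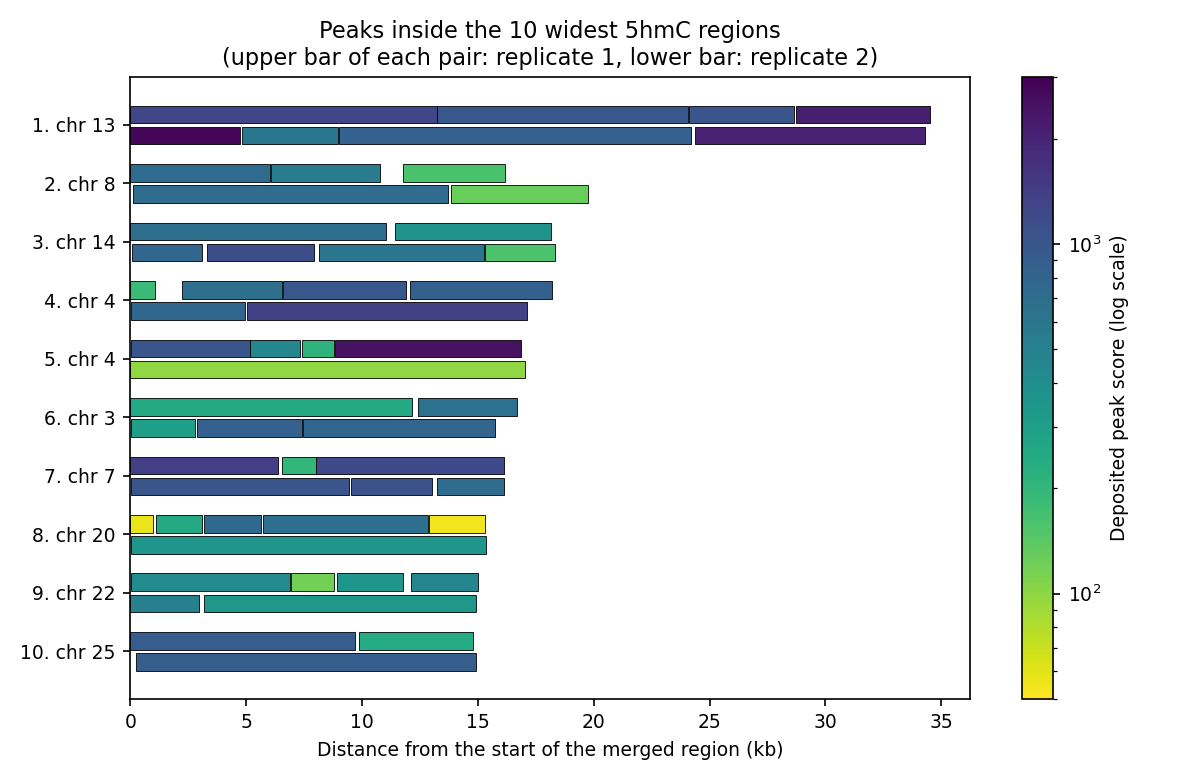
Peaks of replicate 1 (upper bar of each pair) and replicate 2 (lower bar) in the 10 widest 5hmC regions, drawn by distance in kb from the start of each merged region and coloured by deposited score on a log scale. The captures fill nearly the same span in most regions but divide it at different places, as in the chromosome 13 region of 34508 bp with 4 peaks in each.

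Among the 10 widest regions, the highest scores of the captures lay furthest apart at chr4:7317344-7334376. At chr4:7662114-7680324 the replicate 1 peaks scored 187, 685, 985 and 866, and the replicate 2 peaks 771 and 1367. At chr20:8142290-8157653, replicate 1 had 5 peaks, of 57.4, 255, 755, 698 and 54.3, where replicate 2 had 1 peak of 15350 bp with a score of 354. Replicate 1 thus gave a strong middle with weak edges, while 1 value stood for the whole span in replicate 2. At chr4:7317344-7334376 the 4 replicate 1 peaks scored 1015, 451, 211 and 2510, and the 1 peak of 17033 bp in replicate 2 scored 97.9. At chr7:70503601-70519737 the scores were 1431, 203 and 1221 in replicate 1 and 1017, 1070 and 719 in replicate 2, high throughout but for 1 short peak. The regions at chr3:54177790-54194491, chr22:11331278-11346291 and chr25:35677536-35692466 had highest scores of 656, 469 and 908 in replicate 1 and of 853, 512 and 896 in replicate 2.

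The 5 regions named here for their many peaks were all over 10 kb wide. Only the chromosome 13 region, with its 8 peaks in all, was among the 10 widest. The 2 on chromosome 8 had 7 peaks each and were taken from a larger tie. Some of the tied regions that are not named were narrower than 10 kb, so a width over 10 kb is not general to the most divided regions. Mean peaks per region rose with width. They were 1.56 in replicate 1 and 1.31 in replicate 2 at 5 to 6 kb, and 2.60 and 1.92 over 10 kb. At chr12:36633198-36643922 (10725 bp), 5 replicate 1 peaks scored 62.5, 115, 232, 484 and 143.8, and 3 replicate 2 peaks scored 188, 626 and 128. At chr18:17012952-17025700 (12749 bp), 5 replicate 1 peaks scored 107, 421, 112, 463 and 352, and 3 replicate 2 peaks scored 551, 670.3 and 409. Both captures placed the highest score inside each of these regions rather than at an edge. On chromosome 8, chr8:20650684-20663477 (2 and 5 peaks) and chr8:54408062-54418742 (3 and 4 peaks) were divided more finely by replicate 2.

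Wide regions had high scores in both captures. The highest score in a wide region had a median of 463 in replicate 1 (quartiles 283 and 779) and 584 in replicate 2 (344 and 897), against 123 and 130.0 in the other merged regions, which are ratios of 3.77 and 4.49. Ranked within its own list, the median was at the 97.0th percentile in replicate 1 and the 98.0th in replicate 2, against 59.3 and 59.7 for other merged regions. The top score decile held 1026 of the 1368 wide regions in replicate 1 and 1095 in replicate 2. Width and score come from the same peaks, and a joined region takes the highest of its peaks, so this follows in part from the choice. Scores rose with width over the whole range, with no step at 5 kb. Regions of 4 to 5 kb had medians of 312 and 373, those of 5 to 6 kb 394 and 489, and those over 10 kb 755 and 804. Within the wide regions, Spearman's rho of width and score was 0.28 in each list (n = 1368 regions that share both libraries).

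**Figure D2:**
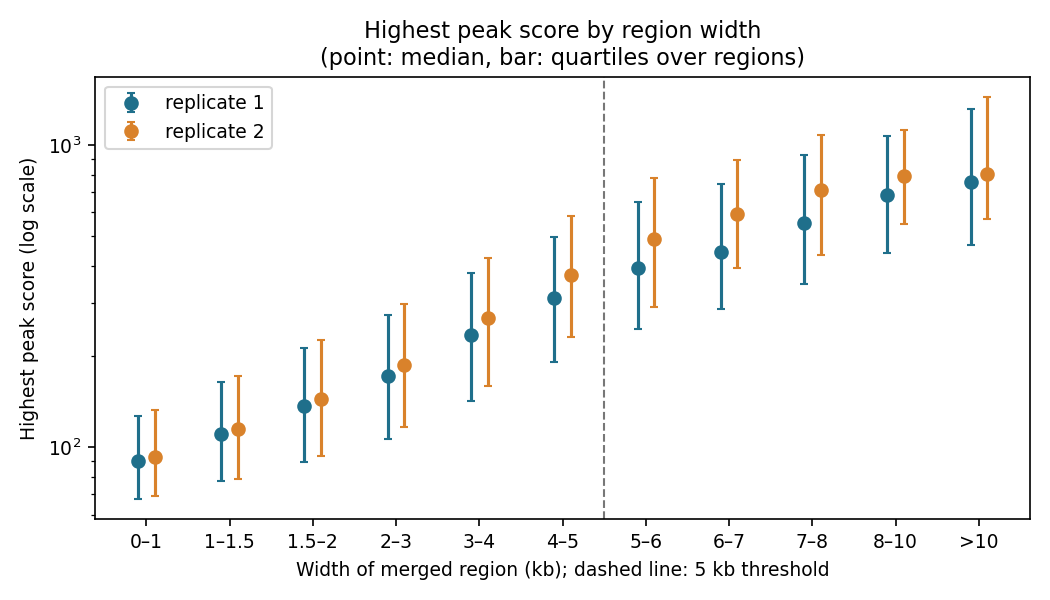
Highest deposited score per merged region on a log scale, by width class in kb, for replicate 1 and replicate 2; points are medians and bars quartiles over regions. Medians climb without a step at the 5 kb threshold, from 312 and 373 at 4 to 5 kb to 394 and 489 at 5 to 6 kb.

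The 5 members that ranked highest by score, averaged over both captures, were well above this median. At chr22:38793824-38804162 a long peak scored 2360 in replicate 1 and 2639 in replicate 2, and a short peak beside it scored 151 and 97.1. Single peaks made up chr21:28191715-28199186 (3100 and 2402) and chr9:8489212-8494979 (2091 and 3166). The regions chr22:11262427-11277055 (2184 and 3100) and chr13:5218761-5230344 (2222 and 2634) completed the 5. None of these 5 was among the 10 widest, although the last lay 1.96 kb from the widest region.

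A few wide regions were weak. The mean score percentile over both lists lay under 50 in 20 of the 1368 (10 of them within 2 Mb of a chromosome end), and 31 lay below the list median in replicate 1 and 25 in replicate 2. The lowest was chr22:67871-72947, a single peak in each list with scores of 61.3 and 71.5. The next 4 were chr2:56829684-56835473 (76.1 and 58.4), chr3:48396524-48401727 (118 and 52.3), chr17:193949-202147 (149 and 52.0) and chr13:53963809-53969230 (57.0 and 140.5). In each of these 4 the captures shared less than 50% of the span. Bases in both lists made up 0.246, 0.283, 0.307 and 0.468 of the bases in either.

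The captures covered much the same bases in most wide regions. Bases in both lists over bases in either had a median of 0.909 (quartiles 0.798 and 0.959), against 0.867 (0.770 and 0.926) in the other merged regions 0.863 in regions of 3 to 5 kb and 0.936 (0.883 and 0.965) in other merged regions of high score rank, that is those up to 5 kb wide whose mean score percentile reached the wide regions' median of 97.0. Right-hand edges differed between the captures by a median of 102 bp (quartiles 40.8 and 266 bp), against 70.0 bp (29.0 and 156 bp) in the other merged regions. The median was 111 bp (44.0 and 349 bp) in regions of 3 to 5 kb and 65.0 bp (26.0 and 140 bp) in those of high score rank. Spearman's rho of the highest scores of the 2 lists was 0.74 across wide regions. Replicate 2 had the higher score in 867 wide regions (63.4%), against 54.2% of the other merged regions, 59.4% of regions of 3 to 5 kb and 59.1% of those of high score rank. In wide regions its score was a median of 1.17 times that of replicate 1 (quartiles 0.860 and 1.67). Scores differed by more than 2-fold in 274 of the 1368 wide regions. The shares were 14.3% of the others, 18.7% of regions of 3 to 5 kb and 2.26% of those of high score rank. The cut on the mean percentile of both lists left out regions high in one list and low in the other. Lowest percentiles in that class were 94.6 in replicate 1 and 94.8 in replicate 2, so its 2.26% follows in part from the choice. The part of this cut in its overlap and edge values was not tested.

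The 5 largest differences in covered bases between the captures lay near chromosome starts. The 5 wide regions that differed most in covered bases were chr15:328845-337953 (3111 bp in replicate 1 and 9109 bp in replicate 2), chr17:193949-202147 (2519 and 8199 bp), chr21:207925-216609 (3157 and 8620 bp), chr8:462370-469201 (1479 and 6832 bp) and chr10:200085-206775 (2133 and 6691 bp). All 5 began within the first 0.5 Mb of their chromosome, and replicate 2 had the longer peak in each. Replicate 2 also had the higher score on chromosomes 15 (519 against 131 in replicate 1), 21 (335 against 324) and 8 (162 against 65.5), and the lower score on chromosomes 17 (52.0 against 149) and 10 (151 against 288). Of the 50 wide regions with the largest such difference, 19 lay within 2 Mb of either chromosome end, and most did not. Of all 1368 wide regions, 269 (19.7%) lay there.

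Peaks over 5 kb in one list were then looked up in the other list, which that choice did not use. Replicate 1 had 542 such peaks, and 535 (98.7%, exact 95% interval 97.4 to 99.5%) overlapped a peak of replicate 2, against 79.0% of all replicate 1 peaks. Replicate 2 had a peak over 5 kb at 385 of them (71.0%, 67.0 to 74.8%), and a median of 98.7% of each peak was covered. Replicate 2 had 935 such peaks, of which 926 (99.0%, 98.2 to 99.6%) overlapped a peak of replicate 1, against 77.4% of all replicate 2 peaks. Replicate 1 had a peak over 5 kb at 381 of them (40.7%, 37.6 to 44.0%), and a median of 94.3% was covered. Scores in the list not used for the choice had a median percentile of 99.0 in replicate 2, and of 97.7 in replicate 1. Wide stretches chosen in one capture were thus covered and ranked high in the other, but replicate 1 often broke them into shorter peaks. All peaks are not a baseline matched in width or score. A longer peak has more bases in which to overlap, and peaks over 5 kb also ranked high in their own list. Their median percentiles there were 99.2 in replicate 1 and 98.7 in replicate 2. The part of width and score in these shares was not tested. Peaks are taken as independent in these intervals, which hold counting error alone.

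Wide regions lay in neighbourhoods rich in 5hmC. Other merged regions filled a median of 36.6% of the 50 kb outside each edge (quartiles 24.0 and 48.8%), against 20.1% (11.0 and 31.8%) around the other merged regions, a ratio of 1.82. The number of merged regions in these flanks had a median of 17.0 against 12.0. In the nearest 10 kb the medians were 44.1% and 20.1%. The direction was the same on all 25 chromosomes, where the median flank ran between 29.1% and 51.6% for wide regions and between 16.4% and 24.2% for the others. It also held within the same neighbourhoods: in the 631 windows of 1 Mb that held a wide region, the mean flank was 37.1% filled for wide regions and 28.1% for the other merged regions of those windows, and it was higher for the wide regions in 498 of them (78.9%).

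Dense flanks were also found around high scoring regions of lesser width. The 2788 other merged regions of high score rank had a median width of 2864 bp and, being cut at the wide regions' median, ranked higher than they did, with a median of the mean percentile of 98.3 against 97.0 for the wide regions. A median of 38.5% of their flanks was filled. Flank filling went with score rank more than with width among the wide regions, with Spearman's rho of 0.36 and 0.16. Both classes fell off with distance alike. For wide regions the filled share was 44.0% between 10 and 11 kb from the edge and 31.5% between 50 and 51 kb, against 44.6% and 33.6% for the other regions of high score rank and 24.2% and 20.8% for all other merged regions.

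**Figure D3:**
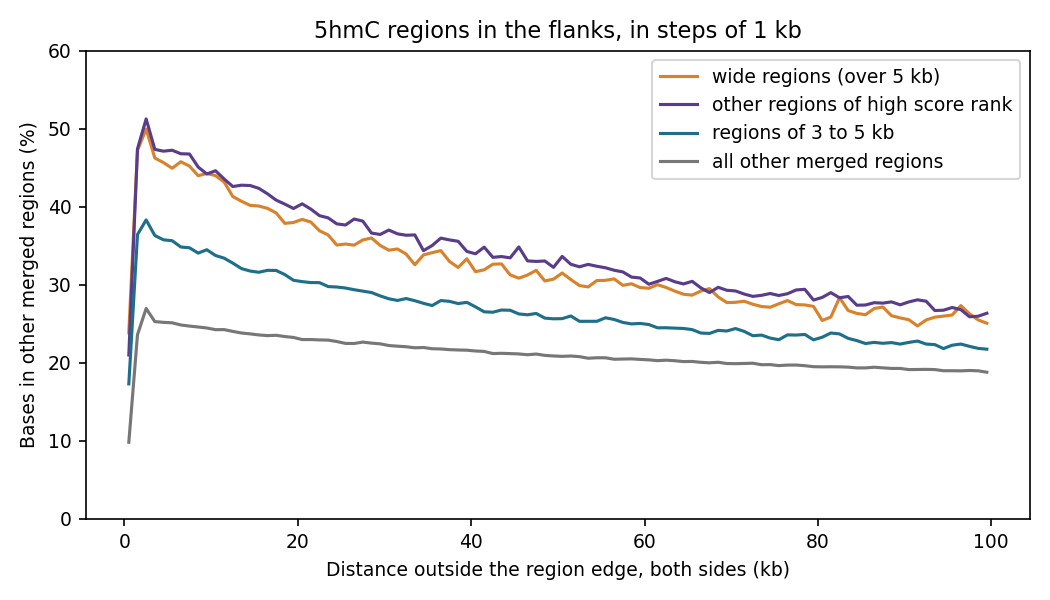
Percentage of bases in other merged regions by distance in kb outside the region edge, for wide regions, other regions of high score rank, regions of 3 to 5 kb and all other merged regions. The upper pair of curves run close together (44.0% and 44.6% at 10 to 11 kb) and well above all other merged regions (24.2%).

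The nearest neighbour was often very close. The smaller of the gaps to the next merged region on either side had a median of 617 bp for wide regions, against 1831 bp for the other merged regions and 754 bp for those of high score rank. A gap under 1 kb on at least 1 side was found at 852 wide regions (62.3%). The shares were 31.4% of the others and 59.3% of those of high score rank. Both gaps exceeded 10 kb at 31 wide regions (2.27%), against 11.6% of the others and 1.15% of those of high score rank. Chains of merged regions no more than 5 kb apart and over 50 kb long held 554 wide regions (40.5%), against 13.0% of the others and 44.8% of those of high score rank.

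Wide regions also lay near one another. Another wide region was within 50 kb of 593 (43.3%), against 15.5% of the other merged regions, 29.3% of regions of 3 to 5 kb and 39.8% of those of high score rank. The median distance to the nearest other wide region was 73.8 kb (quartiles 12.7 and 439 kb). It was 357 kb for the other merged regions, 198 kb for regions of 3 to 5 kb and 97.7 kb for those of high score rank. For 144 wide regions (10.5%) an adjacent merged region was itself wide. This held for 2.32% of the others, 5.86% of regions of 3 to 5 kb and 7.46% of those of high score rank. The closest wide regions were 9 bp apart, less than the median gaps of 117 and 92.0 bp between peaks inside wide regions. Whether such close pairs are 1 stretch cut by the caller was not tested. Linked at up to 50 kb, 593 wide regions formed 223 groups, of which 35 had 4 or more members, and 775 stood alone. Of 1369 windows of 1 Mb, 738 held none, and the 58 with 5 or more (4.24%) held 392 wide regions (28.7%). These 58 were picked by their number of wide regions, and their share of all merged regions is not given here.

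The largest group had 10 wide regions between 70438293 and 70586813 on chromosome 7 (148.5 kb), with widths of 5196 to 16137 bp that filled 56.0% of it. Highest scores in that group ran between 350.3 and 1431 in replicate 1 and between 162 and 1906 in replicate 2. A group of 8 on chromosome 22 (11262427 to 11412662, 150.2 kb) had 50.8% of its length in wide regions, with scores of 469 to 2194 in replicate 1 and 509.6 to 3100 in replicate 2. The other group of 8 lay near the start of chromosome 14 (306335 to 499933, 193.6 kb). It was looser, with 25.6% of its length in wide regions and 37 merged regions in all, and its members were 5431 to 7612 bp wide. Windows with the most wide regions were chromosome 23 from 23 to 24 Mb (13 of 245 merged regions), chromosome 14 from 0 to 1 Mb (12 of 155), chromosome 7 from 70 to 71 Mb (11 of 135), chromosome 22 from 11 to 12 Mb (11 of 142) and chromosome 17 from 53 to 54 Mb (10 of 157).

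Some wide regions lay far from any other wide region. The one farthest from any other was chr4:31778137-31785946, 7165 kb from the next, with no other merged region within 50 kb on either side and scores of 259 and 137 in single peaks. The next were chr3:2074385-2080556 (6292 kb away, scores 55.4 and 319) and chr8:34897501-34902664 (5704 kb away, scores 904 and 571). Their 50 kb flanks held 7 and 15 other merged regions, so they were far from other wide regions only.

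Every chromosome had wide regions, and chromosome 22, singled out after its values were seen, had the highest share. There, 75 of 3114 merged regions were wide (2.41%, exact 95% interval 1.90 to 3.01%), against 1.21% on the other 24 chromosomes together, a ratio of 2.00. It also had the most per Mb, at 1.78, and 11 of the 73 regions over 10 kb. Chromosomes 18, 21 and 4 came next with 1.60, 1.58 and 1.56%. Chromosome 8 had the lowest share with 32 of 4144 (0.772%, 0.529 to 1.09%) and the fewest per Mb (0.570), followed by chromosome 9 (0.784%). Intervals of neighbours in this order overlapped, also those of chromosomes 22 (from 1.90%) and 18 (up to 1.99%). Each list alone also placed chromosome 22 first: peaks over 5 kb made up 0.859% of its peaks in replicate 1 (0.358% on the other chromosomes) and 1.57% in replicate 2 (0.614%).

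Wide regions of chromosome 22 were longer and closer together than those of the rest of the genome. They had a median width of 6498 bp against 5959 bp, and 14.7% of them exceeded 10 kb against 4.80%. Their median scores were 532 in replicate 1 and 639.5 in replicate 2, against 459 and 578. Their flanks were 36.9% filled, against 36.6%. Another wide region lay within 50 kb of 62.7% of them, against 42.2%. Of its merged regions up to 5 kb wide, 12.0% were in the top score decile of replicate 1 and 12.2% in that of replicate 2, against 12.1% and 12.2% for such regions of the whole genome.

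**Figure D4:**
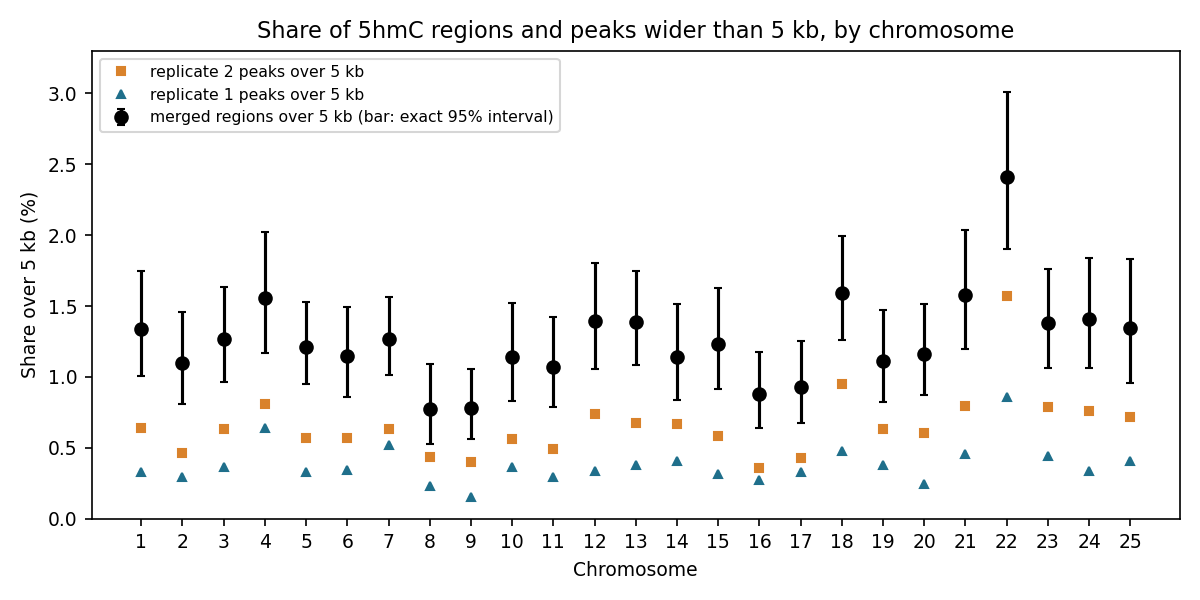
Percentage of merged regions wider than 5 kb on each of the 25 chromosomes with exact 95% intervals (counting error only), and percentage of peaks over 5 kb in each capture. Chromosome 22 stands highest in all 3 measures, with 2.41% of merged regions, 0.859% of replicate 1 peaks and 1.57% of replicate 2 peaks.

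Wide regions gathered toward the chromosome ends. Within 2 Mb of the first base or of the last peak, 269 of 9172 merged regions were wide (2.93%), against 1.09% of the 101143 inner ones, a ratio of 2.70. Thus 19.7% of wide regions lay in 7.37% of the chromosome spans. The shares were 13.4% of regions of 3 to 5 kb, 8.17% of the other merged regions and 7.57% of those of high score rank. The share was higher at the ends than inside on 23 of 25 chromosomes, the exceptions being chromosomes 4 and 22. At the ends it was lowest on chromosome 4 (0.791%) and highest on chromosome 15 (5.49%, against 0.927% inside). Ends with the first base held 157 and ends with the last peak 112. Both captures gave the same direction: peaks over 5 kb made up 0.800% at the ends and 0.333% inside in replicate 1, and 1.64% and 0.551% in replicate 2.

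The share was highest in the outermost 0.5 Mb. There, 93 of 1362 merged regions were wide within 0.25 Mb of an end (6.83%), and 77 of 1244 from 0.25 to 0.5 Mb (6.19%). From 0.5 to 1 Mb the share was 2.14%, and it was 1.15% from 1 to 2 Mb and 1.06% beyond 10 Mb. Other merged regions of high score rank had a different course, with 3.96% and 2.73% in the outer 2 steps, 1.53% from 2 to 5 Mb and 2.86% beyond 10 Mb. Wide regions at the ends scored lower than those inside, with medians of 391 against 487 in replicate 1 and 501 against 609 in replicate 2. The captures also covered them a little less alike, with bases in both over bases in either at 0.894 against 0.912 and a median difference in covered bases of 445 against 344 bp. Quartiles of that overlap nearly coincided, at 0.787 and 0.953 against 0.800 and 0.959. Neither the lower scores nor the lower overlap followed distance from the end step by step. In the outermost 0.25 Mb the overlap was 0.921. From 2 to 5 Mb, which counts as inside, it was 0.863, and median scores were 367 and 414. Whether assembly or repeats near the ends have a part in the values there was not tested.

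**Figure D5:**
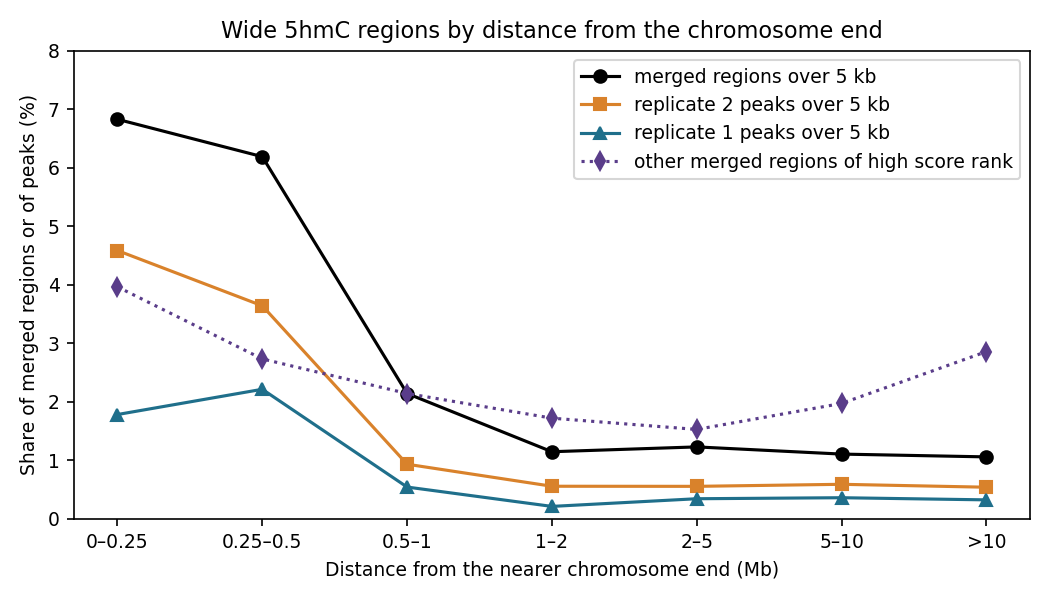
Percentage of merged regions over 5 kb, of replicate 1 and replicate 2 peaks over 5 kb, and of other merged regions of high score rank, by distance in Mb from the nearer chromosome end. The share of wide regions is 6.83% in the outermost 0.25 Mb and 1.06% beyond 10 Mb, and each capture alone has its highest values in the outer 0.5 Mb.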

How the data were processed

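Per the labels' protocols, DNA was sonicated to a mean of 250 bp, 5hmC was tagged and captured, captures were amplified with 12 PCR cycles, and trimmed reads were aligned with BWA. The submitters' processing notes name BWA and danRer7, and peak names in the deposited files name MACS. The sources used here do not give its version, its settings or its use of the input. The deposited files hold start, end and a peak score from the authors' caller for each capture alone, so a region's score depends on how the caller divided it.

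Members and lists were chosen with earlier results of these data known. Regions were merged, and flanks (covered bases within 50 kb of each edge, cut at chromosome limits), gaps, spacing and chromosome shares computed, in Python 3.11.15. Libraries were scipy 1.17.1, pandas 2.3.3 and numpy 2.4.6, and plots used matplotlib 3.10.9. The functions were checked on simulated data. A region's score is the highest of its peaks in that list, and percentiles rank it among all peaks of the list. Intervals are exact Clopper-Pearson at 95%. Spans end at the last peak of either list. Regions with high score rank were those of 5 kb or less with a mean percentile at or above the wide regions' median.

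Regions named were the 10 widest, the 5 highest and 5 lowest by score rank, the 5 with most peaks, the 5 with the largest difference in covered bases, 3 on each side of the threshold, 5 windows, 3 groups and the 3 farthest from another wide region. Chromosome ends were added after the data were seen. Input libraries and a danRer7 genome were not analysed here, so no gene or sequence is given. Alternatives covered score, overlap, merging, width, flank, link distance, each list alone, and chromosomes 4 and 22.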

Additional observations from a re-analysis of the deposited data

How the results depend on the processing

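Among 90 alternatives, 43 values stayed near the main one, 47 moved and 0 reversed, where near means within 1.5 times for the number of wide regions and within 1 SD between the captures otherwise. Reversed means that a ratio fell on the other side of 1. The number of wide regions, the peaks per region and the share with a wide neighbour could therefore not reverse. Score ratios above 1 follow in part from the choice by width. The SD comes from each list alone, or for scores and peak numbers from both lists within the merged regions. It is thus not an error of the main value. For flanks, spacing and chromosome 22 the main value lay outside the values of the single lists. The SD is tiny for flanks (0.013), so small shifts count there. Alternatives for chromosome ends and without chromosome 22 were chosen after the data were seen. Merging peaks up to 500 bp apart gave 4616 wide regions with a mean of 2.71 peaks per list, score ratios to other regions of 2.71 and 2.99, a flank ratio of 1.79, 67.9% with a wide neighbour within 50 kb, a chromosome 22 ratio of 1.43 and an end ratio of 1.90. A width limit of 4, 6 or 10 kb gave 3205, 680 or 73 regions, score ratios of 3.01, 4.40 or 6.08 in replicate 1 and 3.51, 5.28 or 6.13 in replicate 2, flank ratios of 1.70, 1.95 or 2.29, 57.1, 33.4 or 12.3% with a wide neighbour, and chromosome 22 ratios of 1.53, 2.50 or 6.11. Bases in both lists above 5 kb gave 820 regions. Peaks above the median score gave score ratios of 2.50 and 2.94 and a flank ratio of 1.79; those above the lowest decile gave 1.84. An overlap of 50% of the shorter peak gave a flank ratio of 1.85 and a chromosome 22 ratio of 2.26. Flanks of 10 and 100 kb gave 2.19 and 1.65, links of 20 and 100 kb 30.0 and 54.8%, and ends of 1 and 5 Mb 4.07 and 1.86. Each capture alone gave 542 to 935 wide regions, score ratios of 6.99 (replicate 1) and 6.36 (replicate 2), flank ratios of 1.89 to 1.91, 35.8 to 40.4% with a wide neighbour, chromosome 22 ratios of 2.40 to 2.56 and end ratios of 2.40 to 2.98; the number of peaks per region is then always 1. No paired analysis was possible because only inputs share the captures' replicate numbers, and no input values were analysed here. Depth is unknown, so a gap between peaks is not shown to lack 5hmC.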

Other observations

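Peaks outside wide regions were recovered by both captures more often when they lay close to one. Within 10 kb of a wide region, 90.3% of the 5940 replicate 1 peaks and 88.2% of the 5963 replicate 2 peaks overlapped a peak of the other list. Beyond 200 kb the shares were 76.0% and 74.6%. Median scores moved the same way, at 153 and 166 within 10 kb and 96.5 and 100.4 beyond 200 kb, and median widths were 1453 and 1572 bp against 1120 and 1182 bp. The part of score and width in the sharing was not tested.

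On chromosome 4 beyond 28 Mb, its repeat-rich long arm, 1 of 1368 wide regions (0.0731%) was found, the isolated one at chr4:31778137-31785946. That part held 215 of the 108947 other merged regions (0.197%), so few regions of either kind lay there. The first 28 Mb of that chromosome held 53 wide regions (3.87%) and 3202 other merged regions (2.94%). The flanks of these 53, pooled with the single one beyond, had the highest median of any chromosome at 51.6%.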
